A study of Rattus norvegicus with 3 samples.

Results

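The genes described here are 6 that mark retinal astrocytes or pass signals to them: the receptor gene Pdgfra, its ligand gene Pdgfa, the transcription factor gene Pax2, and Gfap, S100b and Aldh1l1. They were chosen by symbol, with no measured value in the rule, and all 6 are among the 18425 genes of the deposited table. Retinal RNA was sequenced at P4 in wild-type Sprague-Dawley rats after 1 µl had been injected into the vitreous at P1. The buffer library came from retinas given citrate buffer (pH 4.5), the saline library from retinas given saline, and the STZ library from retinas given 10 µg of STZ (streptozotocin, an alkylating glucosamine-nitrosourea) dissolved in that buffer. There was 1 library per condition, the number of retinas and animals behind each is not given in the sources used here, and so no difference below has a replicate check or a p-value. For its intravitreal experiments the study describes STZ in right eyes and citrate buffer in the left eyes of the same animals. Whether the sequenced buffer and STZ retinas were paired in this way is not stated.

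Retinal astrocytes are immigrants. Their precursors arise in the optic stalk, carry Pax2, enter through the optic nerve head around birth and spread over the inner surface of the retina. Retinal ganglion cells release PDGF-A, the product of Pdgfa, and astrocytes carry its receptor PDGFRα and divide in response to it. The astrocyte network lays down a fibronectin template and releases VEGF, and the first retinal vessels grow along it. Gfap encodes the astrocyte intermediate filament, S100b a calcium-binding protein, and Aldh1l1 a folate enzyme that is widely used as an astrocyte marker in the brain. Several of these genes are not exclusive to astrocytes: Pdgfra also marks oligodendrocyte precursors and mesenchymal cells, and S100b and, under stress, Gfap are made by Müller glia.

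The 250 bases before the annotated start are shown for the 5 members that had reads in every library, since 4 of them were lower after STZ and 1 was not. They are RefSeq sequences of the assembly GRCr8, written 5′ to 3′ on the strand of the gene. Capitals mark matches, on either strand, to the TATA box (TATAAA), the CCAAT box (CCAAT), the GC box (GGGCGG), the AP-1 site (TGANTCA) and the STAT site (TTCNNNGAA).
Pdgfra, chr14:33408517-33408766, minus strand: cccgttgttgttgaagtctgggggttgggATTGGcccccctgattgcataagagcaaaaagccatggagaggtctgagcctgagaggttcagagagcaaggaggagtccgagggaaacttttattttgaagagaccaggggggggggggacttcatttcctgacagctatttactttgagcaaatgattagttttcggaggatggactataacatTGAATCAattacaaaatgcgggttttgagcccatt
Pax2, chr1:253565672-253565921, plus strand: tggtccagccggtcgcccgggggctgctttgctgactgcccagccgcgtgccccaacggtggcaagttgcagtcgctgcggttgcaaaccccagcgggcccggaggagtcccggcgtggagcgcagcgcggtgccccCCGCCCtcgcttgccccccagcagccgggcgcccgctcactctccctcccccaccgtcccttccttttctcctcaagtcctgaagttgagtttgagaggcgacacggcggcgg
Gfap, chr10:88361662-88361911, minus strand: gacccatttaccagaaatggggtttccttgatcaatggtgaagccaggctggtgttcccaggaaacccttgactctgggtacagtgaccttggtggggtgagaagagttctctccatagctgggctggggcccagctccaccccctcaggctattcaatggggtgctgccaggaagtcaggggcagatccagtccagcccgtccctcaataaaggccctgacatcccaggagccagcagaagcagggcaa
S100b, chr20:12381082-12381331, minus strand: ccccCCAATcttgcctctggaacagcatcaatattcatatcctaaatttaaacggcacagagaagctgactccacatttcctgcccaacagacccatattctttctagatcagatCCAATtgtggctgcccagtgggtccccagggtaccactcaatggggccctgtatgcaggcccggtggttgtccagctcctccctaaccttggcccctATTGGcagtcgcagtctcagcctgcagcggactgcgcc
Pdgfa, chr12:20759116-20759365, plus strand: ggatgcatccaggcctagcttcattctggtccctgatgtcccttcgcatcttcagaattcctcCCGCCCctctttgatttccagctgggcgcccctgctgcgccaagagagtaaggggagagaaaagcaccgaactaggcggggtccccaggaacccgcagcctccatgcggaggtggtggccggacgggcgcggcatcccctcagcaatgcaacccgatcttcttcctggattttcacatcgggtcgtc

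None of the 5 motifs was found in all 4 windows of the genes that were lower after STZ. Pdgfra held 1 CCAAT box, 221 bases before the start, and 1 AP-1 site, 35 bases before it. S100b held 3 CCAAT boxes, Pax2 held 1 GC box, and the Gfap window held no match to any of the 5 motifs. Pdgfa held 1 GC box, as Pax2 did. Among the 33469 promoters of the same length, 34% held a CCAAT box, 30.5% a GC box, 12.9% a TATA box, 7.67% a STAT site and 6.34% an AP-1 site. The GC content ran from 47.2% for Pdgfra to 71.2% for Pax2, around a median of 51.2% over all promoters. The Pax2 window lies inside the span that RefSeq gives the gene.

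The depth was nearly equal, with totals of 21992702 estimated reads for buffer, 21977843 for saline and 22031249 for STZ. Levels are given as FPKM (fragments scaled by transcript length and library size), so that genes of different length can be set side by side, and as the reads behind them. The fold of a gene was (FPKM + 1)/(FPKM + 1), and a gene was called lower below 0.65 and higher above the study's upper threshold, which is the reciprocal of 0.65 after rounding. Because the added 1 shrinks the fold of a gene with a low FPKM, each fold is accompanied by a count ratio, in which the reads of the gene are first divided by the total of their library, with an exact Clopper-Pearson 95% interval that covers counting error only. By this rule 1.04% of all genes were lower and 2.25% were higher in STZ than in buffer, 1.75% were lower and 2.04% were higher than in saline, and 0.429% were lower and 1% were higher in saline than in buffer.

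Pdgfra, which encodes the PDGF receptor of astrocytes, was the most deeply read of the 6 genes and was lower in the STZ library than in both controls. It had 650 reads in buffer, 581 in saline and 269 in STZ. In FPKM, its level was 4.65, 4.17 and 1.92. The controls lay close together and STZ stood below both, with no overlap of the counting intervals. The fold was 0.517 against buffer and 0.565 against saline, both called. Against buffer the count ratio was 0.413 (95% counting interval 0.357 to 0.477), and it was 0.462 against saline (0.398 to 0.535). Of the 18425 genes, 56 had a smaller fold against buffer. In the bulk retina, fewer cells with Pdgfra and less Pdgfra RNA per cell cannot be told apart. For every gene below, too, a change in the number of cells that make it and a change in its RNA per cell cannot be told apart.

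Pdgfa, the gene of the ligand, went the other way. It had 83 reads in buffer, 99 in saline and 133 in STZ, which is an FPKM of 2.83, 3.44 and 4.35. STZ was the highest of the 3 libraries and buffer the lowest. The fold was 1.4 against buffer and 1.2 against saline, and neither was called. The count ratio was 1.6 against buffer (1.21 to 2.13) and 1.34 against saline (1.03 to 1.76), so both intervals lay above 1, as those of 21.7% and 22.1% of all genes did. The count ratio of saline to buffer was 1.19, with an interval of 0.883 to 1.62 that includes 1. The separation of STZ from saline was therefore close to the counting error.

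The order of receptor and ligand was reversed in STZ. Per length, the level of Pdgfra was 1.64 times that of Pdgfa in buffer and 1.21 times in saline, but 0.441 times in STZ. The STZ to buffer count ratio of Pdgfra was 0.259 times that of Pdgfa (exact conditional 95% interval 0.187 to 0.356), and against saline it was 0.345 times (0.253 to 0.469). The STZ library is common to both of these values.

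Pax2, the gene of the paired-box factor that marks astrocyte precursors and the optic stalk, had the smallest count ratio of the 5 genes for which one can be given. It had 57 reads in buffer, 53 in saline and 10 in STZ. In FPKM, its level was 0.93, 0.89 and 0.19. The controls were nearly equal, and STZ lay far below them. The count ratio was 0.175 against buffer (0.0797 to 0.346) and 0.188 against saline (0.0854 to 0.374), while saline to buffer gave 0.93 (0.628 to 1.38). With so few reads the intervals are wide, and even their upper ends lie below 1. The fold was 0.617 against buffer and 0.63 against saline, both called, although the added 1 exceeds the level itself. With a pseudocount of 0.1 in its place the folds were 0.282 and 0.293.

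Gfap, the gene of the glial filament protein, had 338 reads in buffer, 410 in saline and 214 in STZ, an FPKM of 6.26, 7.6 and 3.95. It had the highest level of the 6 genes in both controls. STZ was the lowest library and saline the highest. The count ratio was 0.632 against buffer (0.53 to 0.752) and 0.521 against saline (0.439 to 0.616). The fold was 0.682 against buffer, just short of the threshold of 0.65, and 0.576 against saline, which was called. Gfap was the one member whose controls differed by more than the counting error, with a count ratio of saline to buffer of 1.21 (1.05 to 1.41). Against buffer, its call depended on the pseudocount: with 0.1 the fold was 0.637.

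S100b, the gene of a calcium-binding protein of astrocytes and Müller glia, followed the order of Gfap. It had 70 reads in buffer, 87 in saline and 35 in STZ, an FPKM of 2.54, 3.16 and 1.27. STZ was again the lowest library. Relative to buffer the fold was 0.641 and relative to saline 0.546, both called. The count ratio was 0.499 against buffer (0.323 to 0.759) and 0.401 against saline (0.263 to 0.601). The controls overlapped within counting error, at 1.24 for saline to buffer (0.897 to 1.73).

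Aldh1l1, the folate enzyme gene, was at or near 0 in every library. It had 0 reads in buffer, 1 in saline and 0 in STZ. A count of 0 allows up to 3 reads in a library. No fold is given, since all 3 libraries are at or under that floor. The same libraries held at least 214 reads of Gfap and 269 of Pdgfra. Since reads with several locations were discarded and the annotation is not given in the sources used here, whether these values reflect the level of Aldh1l1 RNA or how its reads were counted was not tested.

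**Figure D1:**
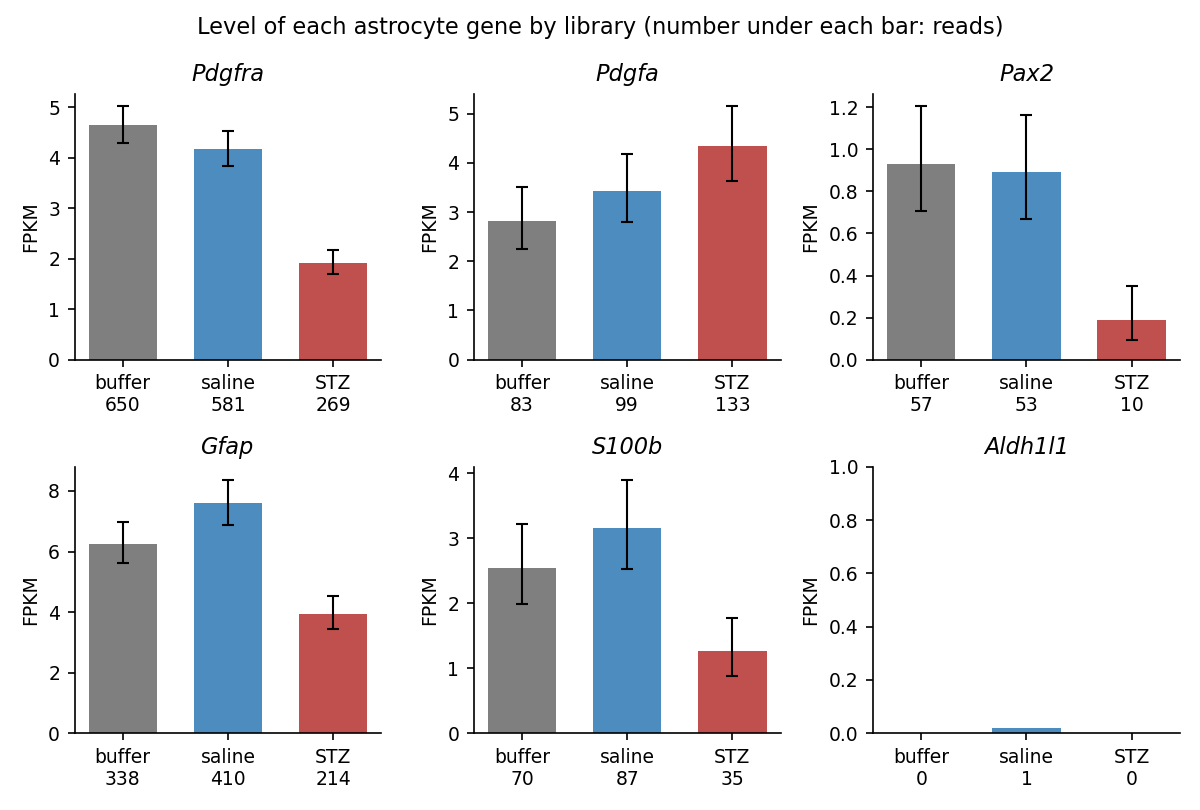
Level of each astrocyte gene in FPKM (y axis, each panel with its own scale) in the buffer, saline and STZ libraries, 1 bar per library, with the reads under each bar and 95% counting intervals for bars of more than 3 reads. Pdgfra, Pax2, Gfap and S100b are lowest in STZ, Pdgfa is highest there, and Aldh1l1 has at most 1 read.

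The order of the levels changed with the library. In buffer, Gfap (FPKM 6.26) was followed by Pdgfra, Pdgfa, S100b and Pax2. Pdgfa and S100b were neighbours within counting error, with FPKM intervals of 2.25 to 3.51 and 1.98 to 3.21. The order was the same in saline, where the intervals of Pdgfra, at 3.84 to 4.52, and Pdgfa, at 2.8 to 4.19, also overlapped. In STZ, Pdgfa (4.35) came first and Gfap (3.95) next, with overlapping intervals of 3.64 to 5.16 and 3.44 to 4.52. Pdgfra, S100b and Pax2 followed at 1.92, 1.27 and 0.19, S100b with an interval of 0.885 to 1.77 that overlapped the 1.7 to 2.16 of Pdgfra. All of these are weakly expressed genes of a whole retina: in buffer, 9671 genes had a higher FPKM than Gfap and 12875 had a higher FPKM than Pax2.

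By the thresholds, 3 of the 6 genes were lower in STZ than in buffer and 0 were higher, where 1.04% of all genes were lower. The 3 are Pdgfra, Pax2 and S100b. Against saline, Gfap joined them and 4 of the 6 were lower, where 1.75% of all genes were. Between the controls, 0 of the 6 were called in either direction. Both STZ comparisons use the same STZ library. Over the 5 genes with a mean of at least 10 reads, the log2 fold of STZ had a median of -0.64 relative to buffer and -0.80 relative to saline, and that of saline relative to buffer had one of 0.21. The medians over the 14885 genes with that many reads were 0.03, 0.01 and 0.02. By the counting interval, 4 of the 6 were lower and 1 was higher in STZ than in buffer, where 15.5% of all genes were lower and 21.7% were higher. The same counts, 4 and 1, held against saline, where the shares were 19.5% and 22.1%. Between the controls 1 of the 6, Gfap, was higher in saline and 0 were lower, where 13.3% of all genes were higher and 9.81% were lower. Pdgfra, Pax2 and S100b, 3 of the 6, were called lower than each of the controls, as 0.63% of all genes were, and 0 were called higher than each, as 1.39% were.

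**Figure D2:**
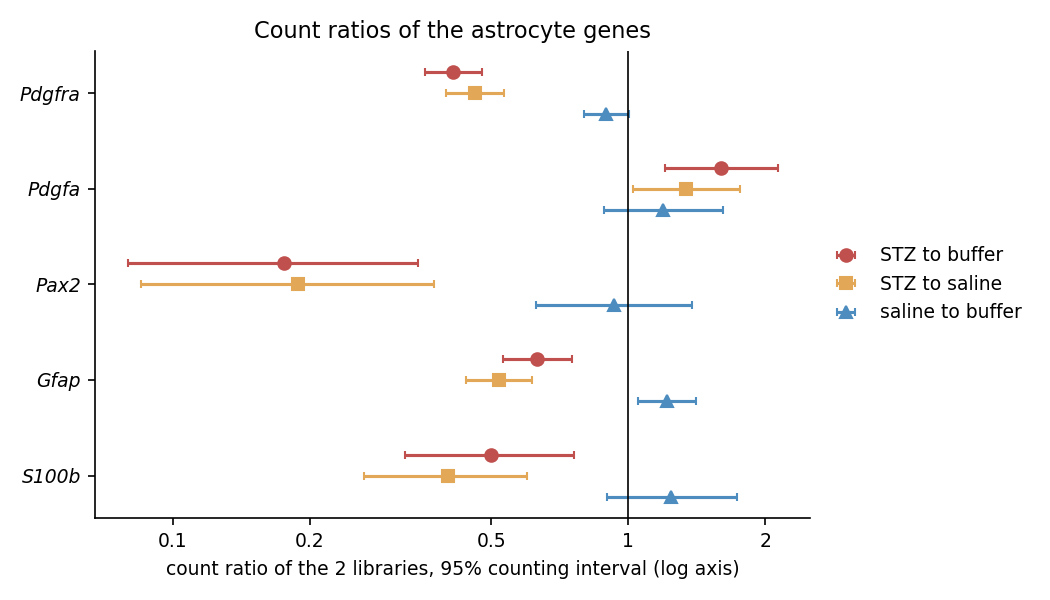
Count ratio of the 2 libraries (x axis, log scale) for the 5 genes with a mean of at least 10 reads, with 95% counting intervals, for STZ to buffer, STZ to saline and saline to buffer. The ratios of Pdgfra, Pax2, Gfap and S100b to either control lie below 1 with their intervals, those of Pdgfa lie above 1, and the saline to buffer ratios lie between 0.894 and 1.24.

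The 4 lower genes were not lower to the same degree. Pax2 had the smallest ratio. The STZ to buffer count ratio of Pdgfra was 2.36 times that of Pax2 (1.17 to 5.26), and against saline it was 2.45 times (1.21 to 5.49). The ratio of Pax2 was 0.353 times that of S100b against buffer (0.143 to 0.806), but 0.471 times against saline (0.192 to 1.07), where the interval includes 1. Gfap had the ratio nearest to 1 against buffer, where the ratio of Pdgfra was 0.654 times that of Gfap (0.52 to 0.822), but against saline the value was 0.887 (0.708 to 1.11) and no difference was detectable. Pdgfra and S100b were not separable at this depth, at 0.828 against buffer (0.53 to 1.31) and 1.15 against saline (0.747 to 1.8). Within each control 10 pairs were compared, without adjustment, and the intervals cover counting error only. Per length, Gfap was 6.73 times Pax2 in buffer, 8.54 times in saline and 20.8 times in STZ.

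**Figure D3:**
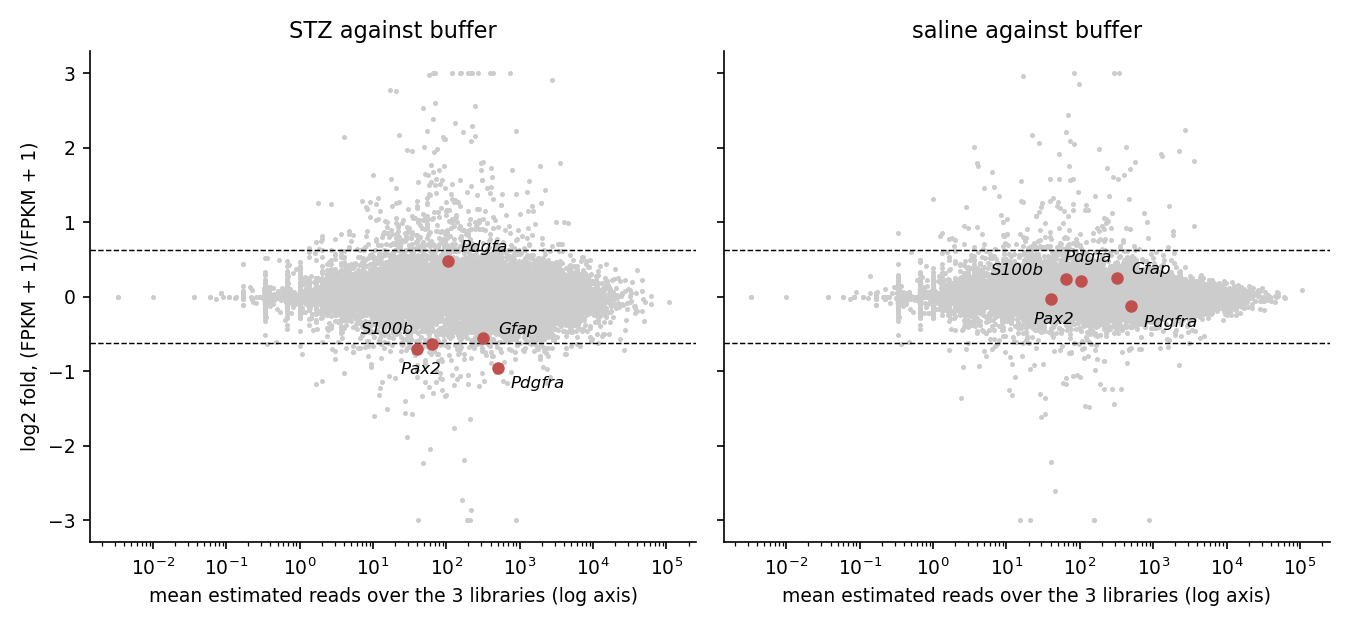
Log2 fold (y axis, values beyond 3 or -3 drawn at the edge) against the mean reads over the 3 libraries (x axis, log scale) for all genes with reads, in grey, and the 5 astrocyte genes with a mean of at least 10 reads, in red. Dashed lines mark the thresholds. In STZ against buffer Pdgfra, Pax2 and S100b lie below the lower line, with Gfap just above it, and in saline against buffer all 5 lie between the lines.

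The saline and STZ libraries each held marker genes of other tissues at a raised level. Genes of the ciliary, iris and pigment epithelium were high in saline: 6 of 10 were called higher than in buffer, and the whole list had 2735 reads in buffer, 9243 in saline and 2694 in STZ, with Rpe65 at 0, 2 and 2 reads. Gfap and S100b were also highest in saline, by less than the threshold. The part of that epithelium in the saline values of Gfap and S100b was not tested. Lens crystallins were high in STZ. The 9 lens genes summed to 261, 572 and 2594 reads, with 5 called higher than in buffer. In saline, 5 of the 9 were called higher than in buffer as well. Cryba1 had the largest fold of STZ against buffer, from 22, 62 and 731 reads. Mip had the smallest, from 73, 73 and 86 reads, with a count ratio of 1.18 (0.851 to 1.63) that was not separable from 1. The lens epithelium gene Foxe3 had 0, 0 and 1 read. Microglial genes were high in STZ too, with 8 of 10 called and sums of 1410, 1720 and 3827 reads. Their part in the lower share of the 4 astrocyte genes was not tested.

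Other cell types that share Pdgfra or Pax2 were examined next. Oligodendrocyte precursors carry Pdgfra. Of the 10 genes of their lineage 0 were called in either direction against buffer, and their median log2 fold was -0.16. Against saline 1 was called lower, the myelin gene Mbp, at 0.582 from 558 reads in buffer, 652 in saline and 404 in STZ, and the median was -0.13. Olig1 and Gpr17 had at most 2 reads in any library. Sox10, the factor that defines that lineage, had 24 reads in buffer, 29 in saline and 35 in STZ, and a count ratio to buffer of 1.46 (0.842 to 2.56), whose interval includes 1. Olig2, which retinal progenitors also express, had 441, 420 and 285 reads and a count ratio to buffer of 0.645 (0.554 to 0.75). Cspg4, which pericytes share, had 41, 58 and 19 reads, for which the count ratio to buffer was 0.463 (0.254 to 0.815). Neither was called by the fold, but both intervals lay below 1, as that of Pdgfra did. The part of this lineage in the lower Pdgfra value was not tested. Mesenchymal cells carry Pdgfra as well, and 9 of the 10 genes listed for them were in the table. Dcn had 1, 10 and 0 reads and Lum 0, 18 and 3, at or under the floor of 3 reads in buffer and STZ, whereas Col3a1 had 83, 73 and 15 and was called lower than in buffer at 0.628. Col1a2 was called higher, with 0, 59 and 104 reads. The share of mesenchymal cells in the lower Pdgfra value was not tested. Around the optic stalk and disc, where Pax2 is made in development, 0 of 8 genes were called in either direction against buffer or saline. Vax1 had 16, 11 and 7 reads, Ntn1 11, 7 and 5, and Bmp7 149, 220 and 184. Their median log2 fold was 0.02 against buffer and -0.16 against saline.

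Among the remaining genes of PDGF signaling, only the second receptor was called by the thresholds. Of 16 genes, 1 was called lower than in buffer, 0 were called higher, and 0 were called against saline. The median log2 fold was -0.08 against buffer. The one called was Pdgfrb, the PDGF receptor of pericytes, which had 203 reads in buffer, 172 in saline and 74 in STZ, with a count ratio to buffer of 0.364 (0.275 to 0.477). That interval overlaps the one of Pdgfra. Among the ligands, Pdgfb had 67, 51 and 67 reads, Pdgfc 66, 62 and 63, and Pdgfd 121, 114 and 104, and the counting intervals of all 3 STZ to buffer ratios included 1. Pdgfa was thus the one ligand gene whose interval lay above 1. Pdgfrl, a receptor-like gene, had the largest fold of the list, 1.17, from only 8, 13 and 14 reads. By the counting interval, 8 of the 16 were lower and 1 was higher than in buffer, where 15.5% and 21.7% of all genes were. Against saline 7 were lower and 1 was higher, where 19.5% and 22.1% of all genes were.

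Further glial genes had medians nearer to 0 than the astrocyte genes. The 16 genes of a wider astrocyte and glial list, 5 of which stand in another list too, had a median log2 fold of -0.16 against buffer and -0.23 against saline. Of the 16, 2 were called lower than in buffer, Nr2e1 at 0.604 and Ndrg2 at 0.646, and 5 were lower than saline. Among those 5 were Gja1 and Id3, which were also called higher in saline than in buffer. By the counting interval, 7 of the 16 were lower than in buffer and 3 were higher, where 15.5% and 21.7% of all genes were. Nr2e1, an orphan receptor gene of retinal progenitors and immature astrocytes, had 1758, 1841 and 1090 reads in the 3 libraries. Vim had 4708, 4915 and 4190 reads and Nes 4534, 3870 and 3265, with folds of 0.889 and 0.727 against buffer. These filament genes are also made by progenitors and Müller glia, at FPKM levels far above Gfap. Gja1, the connexin gene of astrocytes, had 169, 876 and 214 reads and was called higher in saline than in buffer, at 4.04, as the epithelial genes were. Its STZ to buffer count ratio was 1.26 (1.03 to 1.56), on the other side of 1 from the 4 lower astrocyte genes. Like Aldh1l1, the astrocyte connexin gene Gjb6 had almost no reads, 0, 2 and 1. The 11 Müller glia genes had a median log2 fold of -0.17 against buffer, with 0 called lower and Apoe, a lipid carrier gene, called higher at 3.38. Sox9, a glial transcription factor gene, had the smallest fold, 0.653, just short of the threshold, from 778, 795 and 480 reads. Against saline Sox9 was called lower, at 0.64, Apoe was again called higher, and the median was -0.23.

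Gfap is the usual sign of gliosis. Other genes of that response were higher than in buffer or not called. Of 11 reactive glia genes, 3 were called higher than in buffer and 0 lower. These were Timp1, an inhibitor of matrix proteases, at 1.83, the cytokine gene Lif at 1.74 and Stat3, the gene of a factor that drives Gfap, at 1.55. The Stat3 call was marginal, since its fold lay only just past the upper threshold. Against saline the fold of Stat3 was 1.36, which was not called. With TMM factors or size factors to scale the libraries, 2 of the 11 genes were called higher than in buffer, where 3 had been. Stat3 had 1730, 1983 and 2731 reads, highest in STZ, where Gfap was lowest. Against saline 1 of the 11 was called, Lif, with 7, 3 and 39 reads. The median log2 fold was 0.43 against buffer and 0.05 against saline. Part of the rise over buffer was present in saline too. Between the controls, 2 of the 11 were called higher in saline and 0 lower, where 1% and 0.429% of all genes were. The median log2 fold of saline against buffer was 0.25.

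Of the vessel genes, which follow the astrocyte network in development, the endothelial ones were low in the same library. All 12 endothelial genes had a fold below 1 against each control, and 4 were called lower against both, with a median log2 fold of -0.48 against buffer and -0.53 against saline. Cldn5, a tight junction gene of endothelium, had 188, 154 and 37 reads and the smallest fold against buffer, 0.294. The pericyte list was mixed, with a fold below 1 against each control for 7 of 11 genes. Of the 11, 3 were called lower than in buffer and 2 lower than in saline, with medians of -0.16 and -0.27. Of the genes through which astrocytes act on vessels, Fn1, which encodes fibronectin, had 3224, 3192 and 1429 reads and was called lower, at 0.471 relative to buffer and 0.476 relative to saline. Epas1, the gene of a hypoxia factor also made by endothelium, was called too, at 0.573 and 0.565. For Vegfa, with 8902, 8772 and 8346 reads, the fold against buffer was 0.955, and for Tnc, a matrix gene of astrocytes, with 2805, 2694 and 3549 reads, it was 1.25. The whole retina makes Vegfa, so this value is not that of astrocytes. The Fn1 value is also one of the bulk retina, and the part of astrocytes in it was not tested.

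The ganglion cell genes, which mark the source of PDGF-A, had folds on the same side of 1 as Pdgfa. All 11 had a fold above 1 against both controls and 0 were called. Their median log2 fold was 0.15 against buffer and 0.21 against saline, below the 0.48 and 0.27 of Pdgfa. Pou4f1, with 606, 631 and 833 reads, had the largest fold, 1.33. The 10 cycling progenitor genes all had a fold below 1 against buffer, with a median log2 fold of -0.41, and 1 was called, Ccnd1 at 0.611. Against saline 9 of the 10 had a fold below 1, 2 were called lower, and the median was -0.37.

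**Figure D4:**
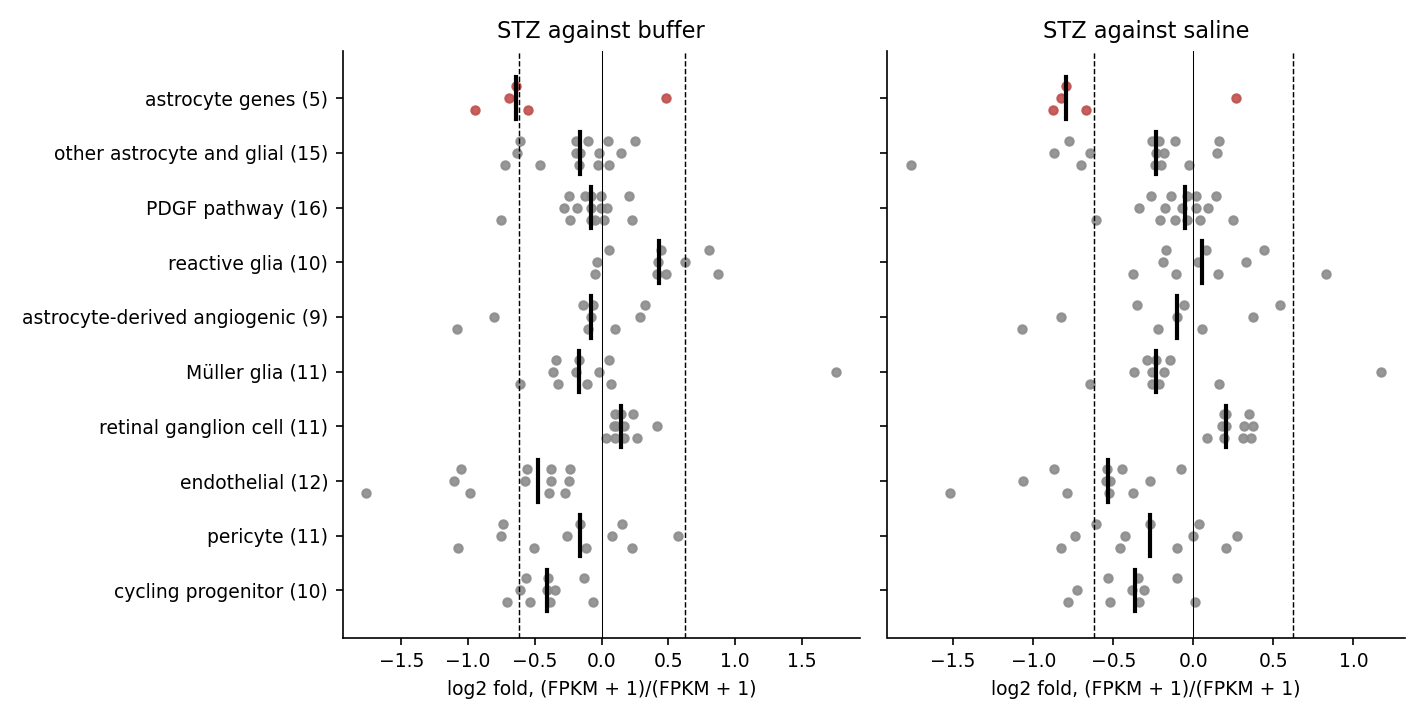
Log2 fold (x axis) of every gene with a mean of at least 10 reads in the astrocyte genes, in red, and in 9 other gene lists, in grey, for STZ against buffer and STZ against saline. The number of genes stands in brackets, thick black bars are medians, and dashed lines mark the thresholds. The median of the astrocyte genes, -0.64 against buffer, lies further left than those of the other 9 lists, of which the endothelial list, at -0.48, is the nearest.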

How the data were processed

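Total RNA of 1 library each of buffer, saline and STZ was analysed. According to the methods and the submitters' processing notes, reads were trimmed by the authors and aligned by TopHat2 to rn6 with up to 2 mismatches, without multi-mapping reads. The annotation and the counting tool are not given in the sources used here. The deposited values per gene and library are the FPKM, the TPM and an estimated count of reads, made by the authors. The estimated count values were rounded to whole numbers for intervals; those of all 6 genes are whole. Of the 18425 identifiers, 17120 matched the RefSeq table of GRCr8.

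Folds and thresholds follow the study's methods. Promoter windows are credited to RefSeq, and no protein sequence was used. No count model was fitted. Calculations were tested on simulated data. The 6 genes were given by symbol, and some of their values were known beforehand from earlier results and the study's supplement. The 15 gene lists were written by hand with earlier results of these data known, so the lists are descriptions only. Named genes are the 6, the other PDGF ligands and receptors, Gja1, Vim, Nes, Olig2, Sox10, Cspg4, and of each list the largest and smallest fold (mean of 10 reads or more). Epas1, Vegfa, Ndrg2, Id3, Stat3, Lif, Ccnd1 and genes at or near 0 were named after their values were seen. The alternatives tried were thresholds of 2 and 0.5, a pseudocount of 0.1, genes with a mean of 10 counts or more, CPM or TPM in place of FPKM, TMM factors (edgeR 4.0.16), size factors (DESeq2 1.42.0, R 4.3.3), the counting interval as the rule, and the mean of both controls. Python 3.11.15, numpy 2.4.6, pandas 2.3.3, scipy 1.17.1 and matplotlib 3.10.9 were used. Without molecular identifiers a read is not a molecule, and intervals and floors cover counting error only.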

Additional observations from a re-analysis of the deposited data

How the results depend on the processing

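No paired analysis was possible because there was 1 library per condition, and no replicate could be left out. With thresholds of 2 and 0.5, 0 of the 6 genes were called in STZ against buffer, where 3 had been, and 0 against saline, where 4 had been. With the counting interval as the rule, 5 were called in STZ against buffer, and 1, Gfap, in saline against buffer, where 0 had been. The number of all genes called depended most on the same choices. In STZ against buffer it was 606, and 2263 with a pseudocount of 0.1, 218 with the stricter thresholds and 6858 by the counting interval. In STZ against saline it was 697, and 2535, 215 and 7660 with these settings and 1088 with TPM. In saline against buffer it was 264, and 1654, 100, 4258 and 480. No fold of the 5 genes with a mean of at least 10 reads changed direction under any alternative: 112 kept their side of the threshold, 6 passed it and 7 no longer did, all 7 of these with the stricter thresholds. For Gfap against buffer the fold was 0.637 with a pseudocount of 0.1 and 0.624 against the mean of both controls, past the threshold it had missed. Depth limits Pax2 and S100b most, and Aldh1l1 gave no value.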

Other observations

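For each of the 5 genes with a mean of at least 10 reads, the 3 genes nearest in pattern were sought among genes with whole-number counts and a mean of at least 50 reads. Nearness was the distance between the pairs of log2 count ratios, STZ to buffer and saline to buffer, over the 3 libraries, which is too few for a correlation. Ptar1 lay nearest to Pdgfra, with 252 reads in buffer, 229 in saline and 106 in STZ, at a distance of 0.0334. Usp2 lay nearest to Pdgfa, with 136, 164 and 217 reads and a distance of 0.0169. Col3a1, at 0.091, lay nearest to Pax2. Eln, with 282, 342 and 182 reads, lay nearest to Gfap at 0.0277, and Mlc1, with 170, 212 and 84 reads, lay nearest to S100b at 0.0178. How many other genes lie at such distances by chance was not tested.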
